A study of Saccharomyces cerevisiae with 18 samples.

Results

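A set of 10 genes of Saccharomyces cerevisiae that carry carbon from pyruvate to ethanol and acetate is described here: PDC1, PDC5, PDC6, ADH1, ADH2, ADH3, ADH4, ADH5, ALD4 and ALD6. Their systematic names are YLR044C, YLR134W, YGR087C, YOL086C, YMR303C, YMR083W, YGL256W, YBR145W, YOR374W and YPL061W. They were chosen by name, and all 10 were found among the 6465 gene windows counted in each of 18 SLAM-seq libraries. In SLAM-seq, 4-thiouracil (4tU) enters RNA as it is made and is read after alkylation as a T-to-C conversion. Reads with at least 2 conversions are called labelled and stand for new RNA, and all reads stand for total RNA. The series follows new mRNA after rapid removal of Bdf1 and Bdf2, BET-family bromodomain proteins that bind acetylated histones and the transcription factor TFIID.

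Both strains, RDY73 and RDY234, carry BDF1-3XV5-mAID and BDF2-3XV5-mAID with an OsTIR1 gene under the GPD1 promoter. RDY234 also carries pBDF1-BDF1::TRP1, a second BDF1 without a tag, and neither strain is without tags. OsTIR1 is the plant receptor that sends mAID-tagged proteins to the proteasome when the auxin 3-indoleacetic acid (IAA) is present. Cells were grown in YPD at 30 °C. Replicates A, B and C were grown for each of 3 treatments per strain: no IAA and no 4tU, DMSO for 25 min and then 5 mM 4tU for 4 min, or 1 mM IAA for 25 min and then 5 mM 4tU for 4 min. Whether the replicates were separate clones or cultures of 1 clone is not stated in these sources, so the p-values measure the spread between these cultures.

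Pyruvate decarboxylase turns pyruvate into acetaldehyde, and it is encoded by PDC1, the main gene in glucose, and by the minor genes PDC5 and PDC6. Alcohol dehydrogenase then reduces acetaldehyde to ethanol and restores NAD+ for glycolysis. ADH1 encodes the main fermentative enzyme, ADH2 the glucose-repressed enzyme that oxidises ethanol, ADH3 the mitochondrial enzyme, ADH4 an enzyme of another protein family that is induced by zinc shortage, and ADH5 a minor isoenzyme. Aldehyde dehydrogenase instead oxidises acetaldehyde to acetate, in the cytosol through Ald6 and in mitochondria through Ald4, whose gene is repressed by glucose.

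Several members are near copies of each other, and the libraries read mRNA at its 3′ end, so bases that differ near that end help to tell their reads apart. The sequences past the stop codon, which the counting windows also cover, were not compared. Over the whole coding sequence PDC5 is 87.2% identical to PDC1, PDC6 is 75.0% identical to PDC1, and ADH2 is 88.8% identical to ADH1. The last 90 coding bases are given here from the RefSeq R64 genome, 5′ to 3′ on the coding strand. Capitals mark bases that differ from PDC1 (in PDC5 and PDC6) or from ADH1 (in ADH2). PDC1 lies at chrXII:232390-232479 (minus strand), PDC5 at chrXII:412325-412414 (plus), PDC6 at chrVII:651290-651379 (minus), ADH1 at chrXV:159548-159637 (minus) and ADH2 at chrXIII:873291-873380 (minus).
PDC1: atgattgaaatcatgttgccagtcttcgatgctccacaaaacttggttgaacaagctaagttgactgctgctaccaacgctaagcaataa
PDC5: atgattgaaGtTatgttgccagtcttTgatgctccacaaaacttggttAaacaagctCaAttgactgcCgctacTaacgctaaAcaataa
PDC6: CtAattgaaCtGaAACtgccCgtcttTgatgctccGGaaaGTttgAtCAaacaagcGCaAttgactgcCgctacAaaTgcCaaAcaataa
ADH1: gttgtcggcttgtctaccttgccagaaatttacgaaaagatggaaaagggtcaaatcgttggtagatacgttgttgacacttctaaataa
ADH2: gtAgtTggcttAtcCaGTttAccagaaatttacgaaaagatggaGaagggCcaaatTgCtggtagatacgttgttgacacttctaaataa
PDC5 differs from PDC1 at 9 of these 90 positions, PDC6 from PDC1 at 24, and ADH2 from ADH1 at 11. Of all reads of PDC1 over the 18 libraries 0.293% were multimapped, and the same share was 0.413% for ADH1, 0.514% for PDC5, 0.571% for PDC6 and 0.657% for ADH2. A read of PDC1 or ADH1 placed by error in a minor copy would weigh more there, since the main copies had 20615 to 71623 reads per library and PDC5, PDC6 and ADH2 had 2 to 116. How often that happened was not tested.

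The 10 genes lie on chromosomes II, VII, XII, XIII, XV and XVI, and each has 1 coding exon in the R64 annotation. Each counting window ran from the start codon to 250 bp past the stop codon. No window overlapped another gene's window on the same strand. On the opposite strand the ADH1 window shared 398 bp with that of MHF1, which had 66 to 272 reads per library against 20615 to 42128 for ADH1. The ALD4 window shared 222 bp with that of GDH1, which had 1175 to 2901 reads against 440 to 989 for ALD4. Whether the counting used strand is not stated in these sources, so the values of ALD4 carry that uncertainty.

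The stretch before the start codon of all 10 members held a TATA element, the sequence at which TATA-binding protein can sit. It was searched as TATAAAAA, TATAAAAG, TATAAATA, TATAAATG, TATATAAA, TATATAAG, TATATATA or TATATATG on both strands, from 250 bases before to 50 bases after the start codon, with overlapping matches merged. Among 6001 promoters of that length 37.7% held a match, against 10 of 10 members. The promoters of PDC1 and ADH1, whose new RNA was not called changed by IAA, and of ADH3 and ADH4, whose new RNA fell, are given here on the coding strand from the R64 genome with the matches in capitals. They lie at chrXII:234032-234331 (minus strand), chrXV:160545-160844 (minus), chrXIII:434538-434837 (plus) and chrVII:14909-15208 (plus).
PDC1: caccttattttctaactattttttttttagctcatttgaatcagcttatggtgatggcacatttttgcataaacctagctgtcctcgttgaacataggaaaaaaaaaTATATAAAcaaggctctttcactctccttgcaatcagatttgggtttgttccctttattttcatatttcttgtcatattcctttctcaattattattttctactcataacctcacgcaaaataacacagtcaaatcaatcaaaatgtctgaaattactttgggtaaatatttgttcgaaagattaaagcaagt
ADH1: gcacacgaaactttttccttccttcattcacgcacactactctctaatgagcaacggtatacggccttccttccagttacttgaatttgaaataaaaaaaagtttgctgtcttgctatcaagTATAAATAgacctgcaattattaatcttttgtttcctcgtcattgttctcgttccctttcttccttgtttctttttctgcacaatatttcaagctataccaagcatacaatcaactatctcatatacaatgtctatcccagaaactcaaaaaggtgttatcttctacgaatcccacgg
ADH3: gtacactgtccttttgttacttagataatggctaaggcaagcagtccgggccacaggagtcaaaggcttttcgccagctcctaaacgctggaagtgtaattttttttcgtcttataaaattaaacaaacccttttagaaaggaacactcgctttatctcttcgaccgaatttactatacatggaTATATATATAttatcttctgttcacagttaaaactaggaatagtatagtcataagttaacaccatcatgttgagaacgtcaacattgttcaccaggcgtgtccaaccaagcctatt
ADH4: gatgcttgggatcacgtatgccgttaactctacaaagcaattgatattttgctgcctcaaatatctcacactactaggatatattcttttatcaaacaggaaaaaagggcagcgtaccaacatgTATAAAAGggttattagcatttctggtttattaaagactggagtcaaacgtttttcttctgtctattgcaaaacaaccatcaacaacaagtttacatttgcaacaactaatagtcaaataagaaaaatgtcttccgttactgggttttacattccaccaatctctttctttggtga
The match began 143 bases before the start codon in PDC1, 128 in ADH1 and 126 in ADH4, and in ADH3 a pair of overlapping matches began 66 and 64 bases before it. The 5-base core CTTCC, bound by the glycolytic activator Gcr1, matched in 6 of 10 members and in 46.4% of all promoters. ADH1 held it 4 times and PDC1 not at all in this window. Neither the core of the Rap1 motif (in 1.13% of all promoters) nor the zinc-response element bound by Zap1 (0.0833%) matched in any member, and the window does not reach further upstream.

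The S. cerevisiae depth was 4177363 to 8541751 reads per library, of which 103348 to 574103 were labelled where 4tU was given (12 libraries) and 10590 to 30610 where it was not (6 libraries). Each library also held 387855 to 792178 reads, 8710 to 17677 of them labelled, from labelled Schizosaccharomyces pombe cells, added ahead of RNA extraction as 1 part by mass to 19 parts. Values below are scaled reads, each count divided by the S. pombe sum of that library and read kind, times the mean sum. Less RNA per cell and fewer S. cerevisiae cells per S. pombe cell cannot be told apart on this scale. The RNA went with the strain labels: in the DMSO groups the scaled reads of BDF1 were 751 ± 25.2 for RDY73 and 2458 ± 14.2 for RDY234 (SD, n = 3), and those of TRP1 were 14.1 ± 1.00 and 332 ± 31.2. Of the S. pombe reads 6.95% to 9.19% were multimapped in RDY73 and 13.5% to 20.2% in RDY234, a difference that lies between the strains and not between treatments.

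Levels of the 10 members spanned more than 3 orders of magnitude in glucose. Per kilobase of counting window in RDY73 with DMSO, total RNA of PDC1 stood at 24406 ± 4684 scaled reads (SD, n = 3) and that of ADH1 at 22218 ± 2615. Per kilobase these top genes overlapped in their ranges over the libraries of that group, as they did with IAA. In scaled reads not divided by length they overlapped in neither group. With DMSO they ran from 39213 to 57191 for PDC1 and from 24902 to 30863 for ADH1. Reads taken at the 3′ end need not grow with window length, so the order per kilobase depends on that division. ALD6 followed at 3223 ± 326 scaled reads per kilobase, ADH3 at 490 ± 44.9 and ALD4 at 392 ± 36.2, each without overlap with its neighbour. Undivided, ADH3 (624 to 744 scaled reads) and ALD4 (638 to 765) overlapped. ADH2 at 49.1 ± 11.6, ADH4 at 47.2 ± 3.27 and PDC5 at 44.0 ± 4.64 scaled reads per kilobase came next and overlapped, while ADH5 at 27.0 ± 1.87 and PDC6 at 6.53 ± 3.15 lay below them. Undivided, PDC5 (77.6 to 95.3 scaled reads) lay above ADH2 (47.7 to 77.4) and ADH4 (61.0 to 70.0). In RDY234 with DMSO the order among the weak genes differed. ADH4 stood at 99.7 ± 9.12 scaled reads per kilobase, above PDC5 at 44.0 ± 9.64 and ADH5 at 35.5 ± 10.9, which overlapped, and ADH2 at 14.3 ± 7.69 overlapped PDC6 at 6.72 ± 3.04. Undivided, PDC5 (71.6 to 107 scaled reads) lay above ADH5 (36.3 to 62.7) in that group. The 10 members together took 1.42% ± 0.103 of all S. cerevisiae reads in DMSO-treated RDY73 and 1.54% ± 0.0891 in DMSO-treated RDY234 (SD, n = 3).

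**Figure D1:**
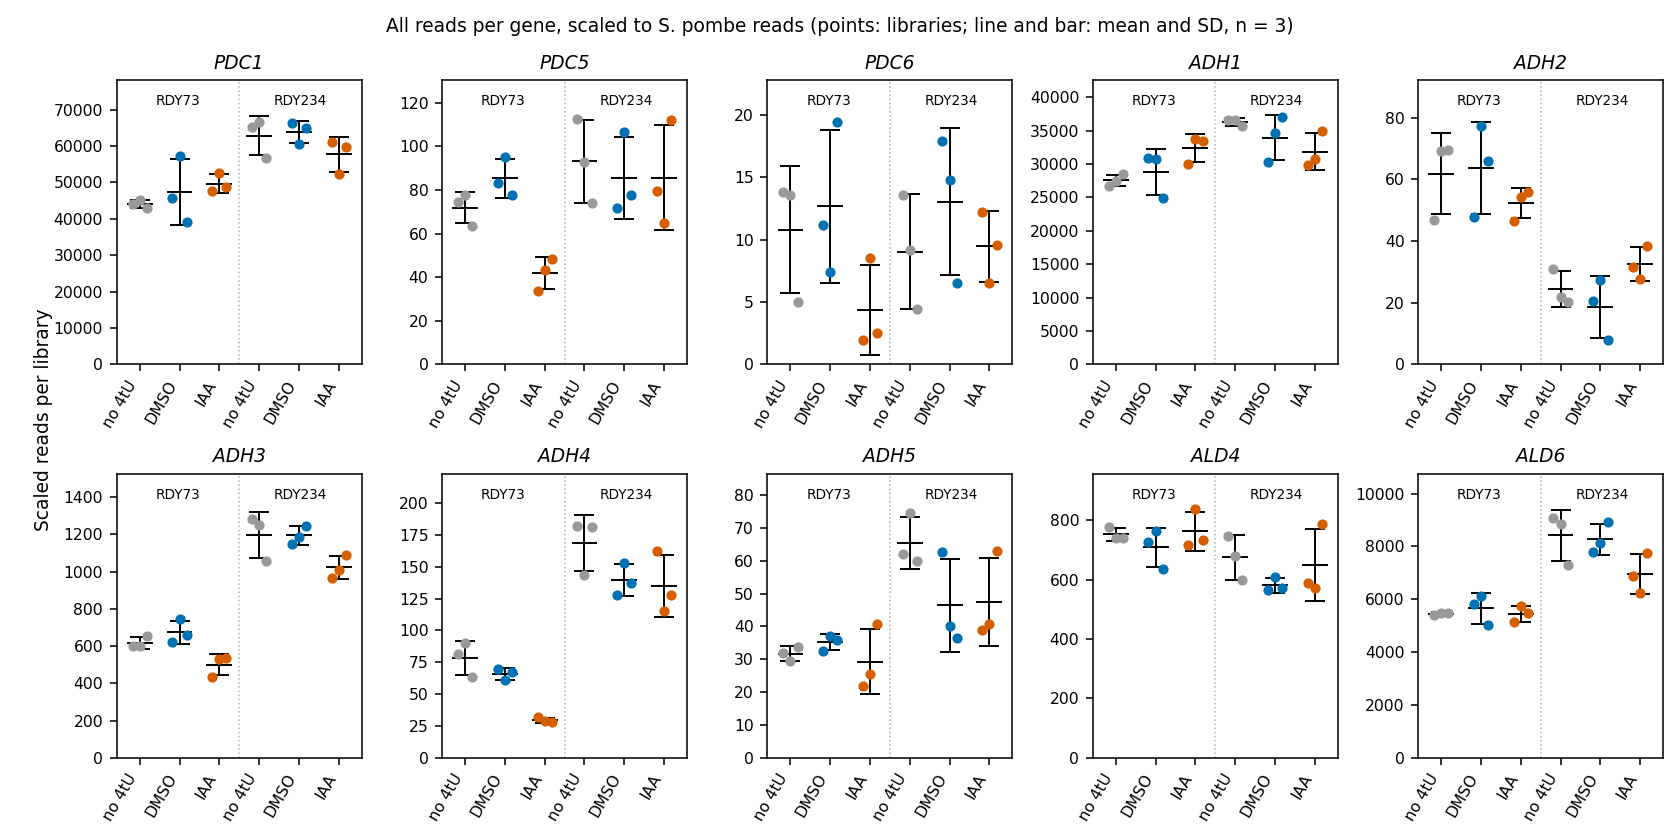
Total RNA of the 10 members in scaled reads per library (vertical axes start at 0), in 3 groups of each strain. Points are libraries, lines means and bars SDs over 3 libraries, and ADH4 and PDC5 with IAA in RDY73 sit below the DMSO points of that strain while PDC1, ADH1, ALD4 and ALD6 overlap theirs.

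The first comparison asks how new RNA of these genes changed when IAA was given to RDY73, which carries the degron tags and no added untagged BDF1. Transcripts of the main fermentation route, PDC1 and ADH1, were not called changed, nor was mitochondrial ALD4, while ADH4, ADH3 and ALD6 fell. Across all genes tested, 84.3% were called changed, 83.9% lower and 0.385% higher. Counts were tested with edgeR (quasi-likelihood F test) and adjusted by Benjamini and Hochberg over the 5195 genes that had at least 10 labelled reads in at least 3 of the 12 libraries. Of the members 7 passed that filter, and PDC5, PDC6 and ADH2 did not. ADH4 passed mainly through libraries of RDY234. ADH5 reached 10 labelled reads only in IAA libraries: replicates B and C of RDY234 (12 and 16) and replicate C of RDY73 (10). The count of tested members is thus not neutral for these genes, and the IAA changes of ADH5 are not independent of the filter. Of those 7, 3 were lower and none higher, with a median log2 change of -0.12 against -1.97 over all tested genes. That median is the value of ADH5 itself (-0.12 ± 0.76, SE), so it is not independent of the filter either. The members ranked next to ADH5 were ADH1 at -0.05 and ALD6 at -0.51, which also lay above -1.97.

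PDC1, the main pyruvate decarboxylase, had 740, 949 and 663 scaled labelled reads in the DMSO replicates A, B and C of RDY73 and 679, 778 and 837 with IAA. The groups overlapped, and the log2 change was -0.03 ± 0.13 (SE, 95% interval -0.29 to 0.23, edgeR adjusted p = 0.826). ADH1, the main alcohol dehydrogenase, had 929, 1041 and 728 scaled labelled reads with DMSO and 710, 955 and 936 with IAA. These groups overlapped too, with a log2 change of -0.05 ± 0.13 (95% interval -0.31 to 0.21, adjusted p = 0.722). The intervals of both genes lie above the median of all genes. Among the 5195 tested genes, the log2 change of PDC1 stood at percentile 97.0 and that of ADH1 at percentile 96.9.

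Of the aldehyde dehydrogenases ALD6 was called and ALD4 was not. ALD4 had 29.5, 36.5 and 31.3 scaled labelled reads with DMSO and 35.8, 25.9 and 49.6 with IAA, and the groups overlapped (log2 change 0.20 ± 0.29, 95% interval -0.36 to 0.77, adjusted p = 0.497). The cytosolic gene ALD6 had 609, 760 and 571 with DMSO and 448, 460 and 450 with IAA, so every IAA library lay below every DMSO library. Its new RNA fell 1.42-fold (log2 change -0.51 ± 0.14, adjusted p = 0.000377). ALD6 stood at percentile 90.4 of the 5195 log2 changes, so most genes fell further. The difference between both genes was tested as the ratio of their labelled reads within a library, which was higher with IAA by 0.65 on the log2 scale in RDY73 and by 0.42 in RDY234, without overlap (exact permutation p = 0.1, the smallest possible, adjusted p = 0.218 over 24 ratio tests).

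ADH3, the mitochondrial alcohol dehydrogenase, had 40.0, 41.1 and 38.6 scaled labelled reads with DMSO and 8.17, 18.4 and 19.1 with IAA. The groups did not overlap, replicate A with IAA was the lowest, and the fall was 2.55-fold (log2 change -1.35 ± 0.32, adjusted p = 4.2e-05). ADH4 had 7.37, 7.61 and 10.4 scaled labelled reads with DMSO and 0, 1.67 and 2.61 with IAA. Its groups did not overlap either, and the fall was 5.34-fold (log2 change -2.42 ± 0.72, adjusted p = 0.00120). That value rests on 22 labelled reads with DMSO and 5 with IAA over 3 libraries each. It was -3.06 without IAA replicate C and ran from -2.52 to -1.94 without any other of these libraries, and the call was kept. ADH4 stood at percentile 32.1 of the log2 changes and ADH3 at 71.7.

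ADH5, which passed the filter only through IAA libraries, had 5.26, 1.52 and 5.21 scaled labelled reads with DMSO and 0, 2.51 and 8.70 with IAA. The IAA libraries spread over the whole DMSO range and beyond, and the log2 change of -0.12 ± 0.76 has a 95% interval from -1.62 to 1.37, so a fall smaller than the median of all genes could not be told from no change at this depth. PDC5 had 2, 4 and 1 labelled reads with DMSO and 0, 3 and 4 with IAA, ADH2 had 0, 0 and 1 and then 4, 3 and 0, and neither was tested. ADH2 also had 1, 3 and 1 labelled reads in RDY73 without 4tU. Its labelled reads with 4tU thus did not stand out from those without. The labelled share of ADH2 without 4tU was 2.61% ± 1.69 in RDY73 and 2.80% ± 2.65 in RDY234 (SD, n = 3). For ADH1 it was 0.268% and 0.412%. Whether misplaced ADH1 reads add to the reads of ADH2 was not tested. PDC6 had no labelled read among the 114 reads of the 12 libraries given 4tU, which allows a labelled share of up to 2.63% (3 reads of the total, counting error only). With at least 1 conversion per read as the definition of labelled, PDC5 could be tested and fell (log2 change -1.27 ± 0.52, adjusted p = 0.0188), and so did ADH4 (-1.68 ± 0.42), ADH3 (-0.75 ± 0.20) and ALD6 (-0.28 ± 0.13).

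**Figure D2:**
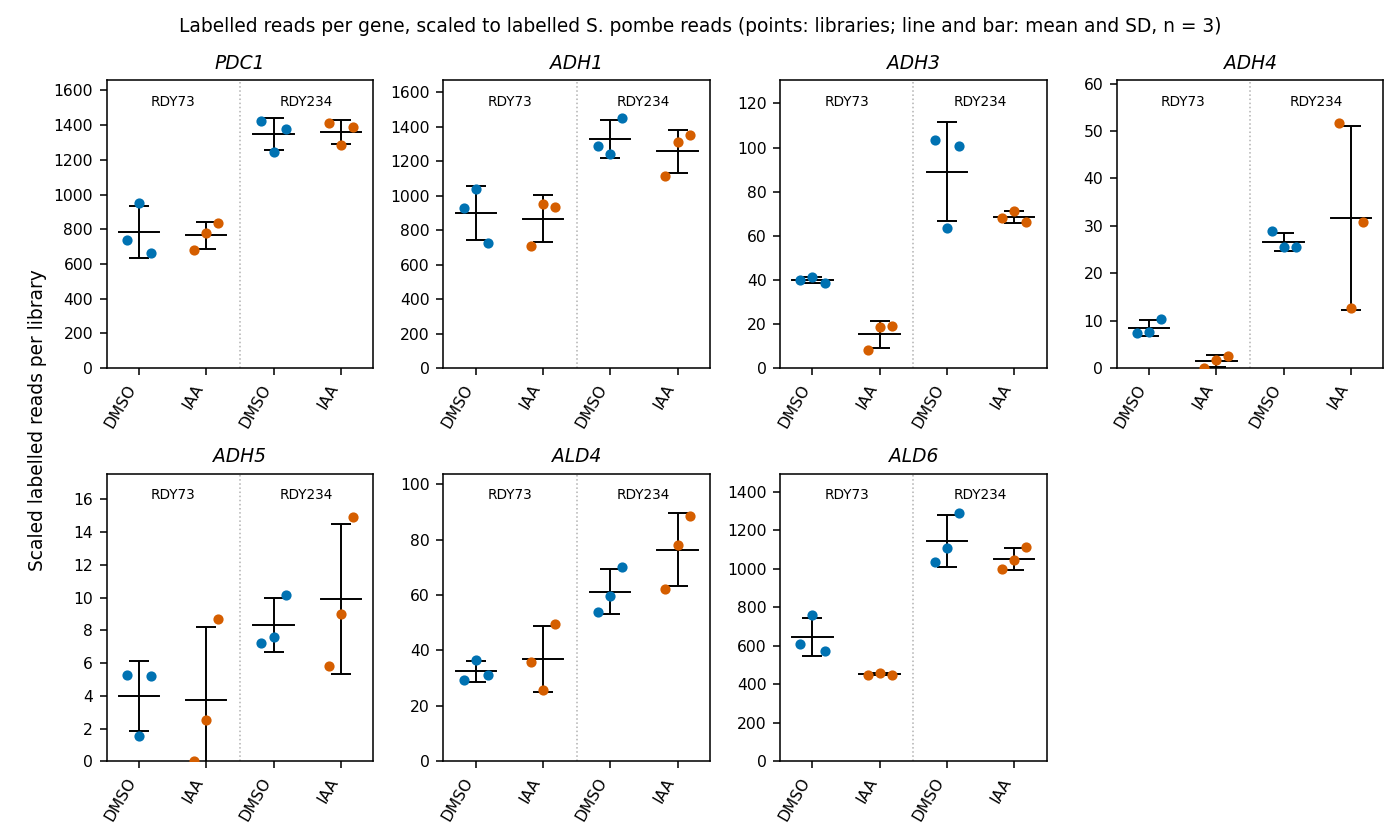
New RNA of the 7 tested members in scaled labelled reads per library, DMSO and IAA in each strain (vertical axes start at 0, bars cut at 0). Points are libraries, lines means and bars SDs over 3 libraries, and in RDY73 the IAA points of ADH3, ADH4 and ALD6 lie below all DMSO points while those of PDC1, ADH1, ADH5 and ALD4 overlap them.

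Labelled reads fell for most genes, and the sign of the log2 change of PDC1, ADH1, ADH3, ADH5 and ALD6 turned with the scale. Of these genes only ALD6 was called on both scales. Under relative scaling, TMM factors from the S. cerevisiae counts alone, which sets a typical gene near no change, the median log2 change of all tested genes moved from -1.97 to -0.29. On that scale 4 of the 7 tested members were higher with IAA in RDY73, none was lower, and 27.8% of all genes were called (16.3% higher). New RNA of PDC1 was then at a log2 change of 1.69, ADH1 at 1.67, ALD4 at 1.91 and ALD6 at 1.21, all past the threshold. ADH3 at 0.34 and ADH4 at -0.80 were not called. ALD6 was thus lower per S. pombe read and higher relative to other new RNA. The 10 members went from 0.968% ± 0.0723 to 1.82% ± 0.0281 of all labelled S. cerevisiae reads (SD, n = 3), without overlap between libraries (no test).

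In RDY234, which keeps an untagged BDF1, none of the 7 tested members was called with IAA, where 0.0385% of genes were (2 of 5195 by edgeR and 1 by DESeq2, with 245 genes and none of the members at an unadjusted p under 0.05). PDC1 had 1423, 1244 and 1377 scaled labelled reads with DMSO and 1414, 1284 and 1387 with IAA (log2 change 0.01, 95% interval -0.24 to 0.27). ADH3 had 103, 63.4 and 101 and then 68.2, 71.3 and 66.1 (log2 change -0.36, 95% interval -0.83 to 0.10). ADH4 had 28.8, 25.5 and 25.5 and then 51.6, 12.8 and 30.7 (log2 change 0.23, 95% interval -0.51 to 0.96). In all 3 genes the groups overlapped, and the IAA libraries of ADH4 were the most spread.

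The difference between the strains in the IAA effect was tested as an interaction over the same 12 libraries, in which 74.4% of all genes were called (74.2% lower in RDY73). Of the 7 tested members 2 were called, both with the lower effect in RDY73: ADH4 (-2.64 ± 0.81 on the log2 scale, adjusted p = 0.00238; -3.28 without IAA replicate C of RDY73) and ADH3 (-0.99 ± 0.40, adjusted p = 0.0192). As ADH4 passed the filter mainly through RDY234, its call is not independent of the level in that strain. The call of ADH3 was lost without replicate B of the RDY234 DMSO group (adjusted p = 0.0836), without replicate A of the RDY73 IAA group (0.0991), and with at least 1 conversion (0.0701). ALD6 stood at -0.39 ± 0.19 (adjusted p = 0.0553), and it passed the threshold with DESeq2 on S. pombe size factors (0.0374) and without replicate C of the RDY234 DMSO group (0.0301), replicate A of the RDY234 IAA group (0.0473) or replicate C of the RDY73 DMSO group (0.0246). For PDC1 the difference was -0.05 (95% interval -0.41 to 0.32), for ADH1 0.03 (-0.34 to 0.39) and for ALD4 -0.12 (-0.86 to 0.63). Under relative scaling, where 18.3% of genes were called (11.6% higher), PDC1 (1.55), ADH1 (1.62), ALD4 (1.46) and ALD6 (1.20) were called higher in RDY73 in that interaction, and ADH3 (0.57) and ADH4 (-1.15) were not called.

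The share of a gene's own reads that are labelled needs no spike-in. Without 4tU it was 0.157% ± 0.0270 for PDC1 and 0.268% ± 0.0549 for ADH1 in RDY73 (SD, n = 3), and 0.258% ± 0.0437 and 0.412% ± 0.0789 in RDY234. With DMSO and 4tU it was 1.58% ± 0.0329 for PDC1 and 2.98% ± 0.304 for ADH1 in RDY73, the lowest of the 6 members plotted. ALD6 at 10.9% ± 1.04 and ADH4 at 12.3% ± 2.18 were labelled far more, and ADH3 at 5.68% ± 0.434 and ALD4 at 4.38% ± 0.415 lay between. The shares depend on the number of T positions read, and the lengths and T content were not corrected for.

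With IAA in RDY73 the labelled share of ADH3 went from 6.18%, 5.40% and 5.46% to 1.83%, 3.50% and 3.48%. That of ADH4 went from 10.1%, 12.2% and 14.5% to 0%, 5.88% and 9.09%, and that of ALD6 from 10.1%, 12.1% and 10.6% to 8.46%, 8.11% and 7.99%. None of these 3 genes overlapped between the groups, while PDC1 (1.56%, 1.62% and 1.57%, then 1.39%, 1.50% and 1.67%) and ADH1 overlapped. The labelled share of all S. cerevisiae reads in RDY73 fell too, from 3.76%, 4.38% and 4.11% to 2.28%, 2.43% and 2.60%. How many of all genes did not overlap was not counted, so a fall without overlap is not shown to be particular to these genes. In RDY234 the share of ALD6 moved the other way, from 14.7% ± 0.524 to 16.0% ± 0.680, as did that of PDC1, from 2.25% ± 0.0770 to 2.49% ± 0.150, again without overlap. For ALD6 the gap was very narrow, with 15.211% in DMSO replicate B and 15.217% in IAA replicate A. An exact permutation test of 3 against 3 cannot go below p = 0.1. All of these shifts without overlap reached that value (two-sided, adjusted p = 0.190 over 40 tests), so none passed the threshold.

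**Figure D3:**
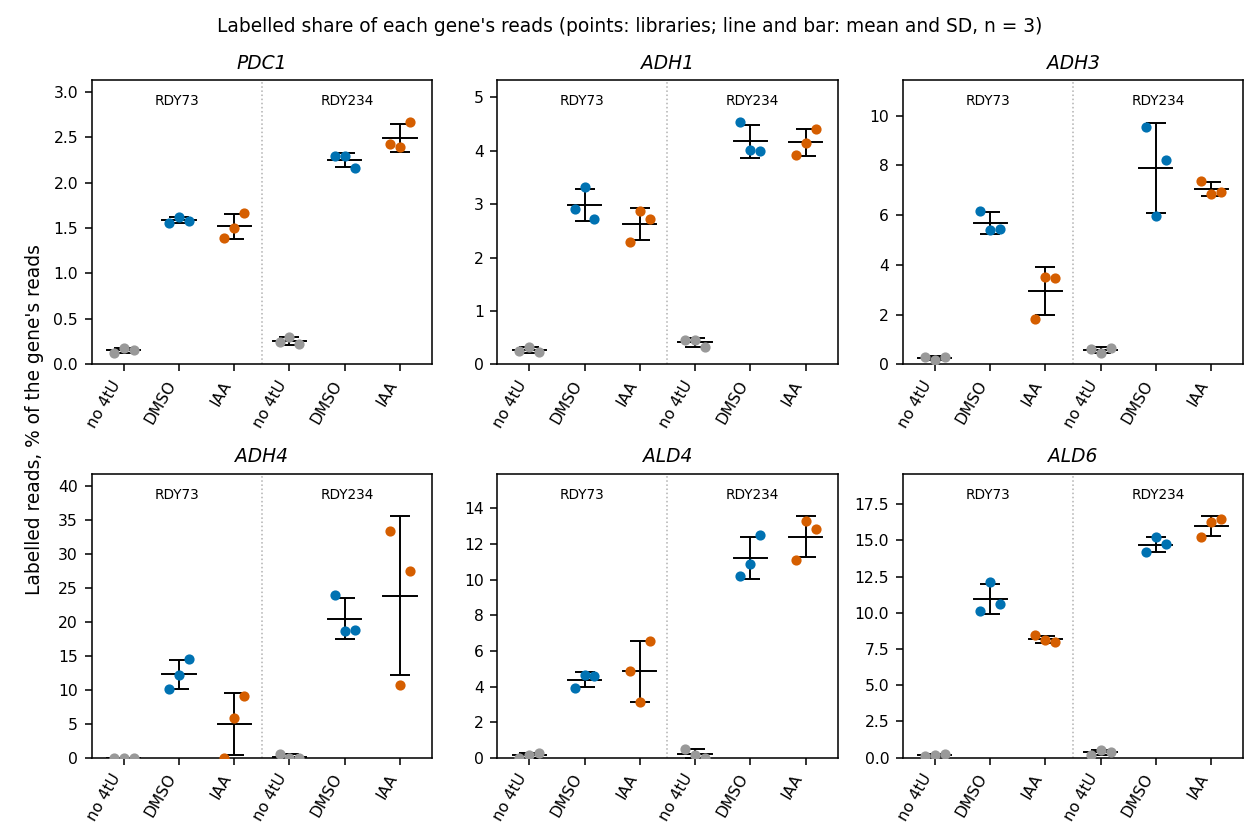
Labelled reads as a percent of each gene's reads for 6 members, by group and strain (vertical axes start at 0). Points are libraries, lines means and bars SDs over 3 libraries, and ADH3, ADH4 and ALD6 in RDY73 lie lower with IAA than with DMSO while the points without 4tU stay under 1%.

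Total RNA was compared over all reads. With IAA in RDY73 4 of the 10 members fell and none rose, where 79.1% of the 6100 tested genes were called (77.9% lower and 1.16% higher), and the members' median log2 change was -0.26 against -1.24 over all tested genes. PDC5 and PDC6, the minor decarboxylases, and ADH3 and ADH4 were the ones that fell. Those that were not called were PDC1, ADH1, ADH2, ADH5, ALD4 and ALD6.

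PDC5 had 83.2, 95.3 and 77.6 scaled reads with DMSO and 33.7, 43.3 and 48.2 with IAA. The groups did not overlap and the fall was 2.02-fold (log2 change -1.01 ± 0.23, adjusted p = 0.000127). PDC6, the weakest member, had 11.2, 7.44 and 19.4 scaled reads and then 1.98, 8.49 and 2.54. Its groups overlapped, and the fall of 2.92-fold (log2 change -1.54 ± 0.58, adjusted p = 0.0138) was lost without DMSO replicate C (adjusted p = 0.146), IAA replicate A (0.0663) or IAA replicate C (0.0678). PDC1 had 45787, 57191 and 39213 scaled reads with DMSO and 47547, 52561 and 48800 with IAA, with a log2 change of 0.07 (95% interval -0.19 to 0.33, adjusted p = 0.645). Within a library, the ratio of PDC5 to PDC1 reads was lower with IAA without overlap, at a log2 difference of -1.12 (exact permutation p = 0.1, the smallest possible, adjusted p = 0.218 over 24 ratio tests).

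ADH4 had 70.0, 61.0 and 67.0 scaled reads with DMSO and 31.7, 28.9 and 27.9 with IAA. The IAA libraries lay close together and well below the DMSO libraries, a fall of 2.25-fold (log2 change -1.17 ± 0.22, adjusted p = 7.9e-06). ADH3 had 624, 744 and 658 and then 434, 533 and 534 scaled reads, without overlap, and fell 1.35-fold (log2 change -0.43 ± 0.13, adjusted p = 0.00199). ADH1 had 30863, 30686 and 24902 and then 29970, 33798 and 33392 scaled reads, with overlap and a log2 change of 0.17 (95% interval -0.08 to 0.42). The reads of ADH3 and ADH4 per ADH1 read were lower without overlap in RDY73, at log2 differences of -0.61 and -1.33 (exact permutation p = 0.1, adjusted p = 0.218).

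ADH2, the ethanol-oxidising gene, had 47.7, 77.4 and 66.0 scaled reads with DMSO and 46.6, 54.3 and 55.8 with IAA in RDY73, with overlap and a log2 change of -0.27 (95% interval -0.80 to 0.27). ADH5 had 32.5, 37.2 and 35.9 and then 21.8, 25.5 and 40.6 scaled reads (log2 change -0.25, 95% interval -0.84 to 0.34). Among the aldehyde dehydrogenases, ALD4 had 728, 765 and 638 and then 716, 840 and 735 (log2 change 0.11, 95% interval -0.15 to 0.37). ALD6 had 5806, 6128 and 5018 and then 5147, 5758 and 5470 scaled reads (log2 change -0.05, 95% interval -0.29 to 0.19). All of these overlapped, ALD6 included, whose new RNA had fallen. The ALD4 to ALD6 ratio of all reads was higher with IAA in both strains, by 0.15 on the log2 scale in RDY73 and 0.40 in RDY234, without overlap (exact permutation p = 0.1, adjusted p = 0.218).

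Under relative scaling the total RNA of 7 members was higher with IAA in RDY73 and none was lower, where 60.4% of all genes were called (29.6% higher) and their median log2 change was -0.10. PDC1 stood at a log2 change of 1.23, ADH1 at 1.33, ALD4 at 1.26 and ALD6 at 1.11. ADH2 at 0.88, ADH5 at 0.89 and ADH3 at 0.72 were also called, so ADH3 was lower per S. pombe read and higher relative to other mRNAs. PDC5 at 0.13, PDC6 at -0.45 and ADH4 at -0.03 were not called. The share of all reads taken by the 10 members went from 1.42% ± 0.103 to 1.87% ± 0.0292 in RDY73 and from 1.54% ± 0.0891 to 1.44% ± 0.0541 in RDY234 (SD, n = 3).

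**Figure D4:**
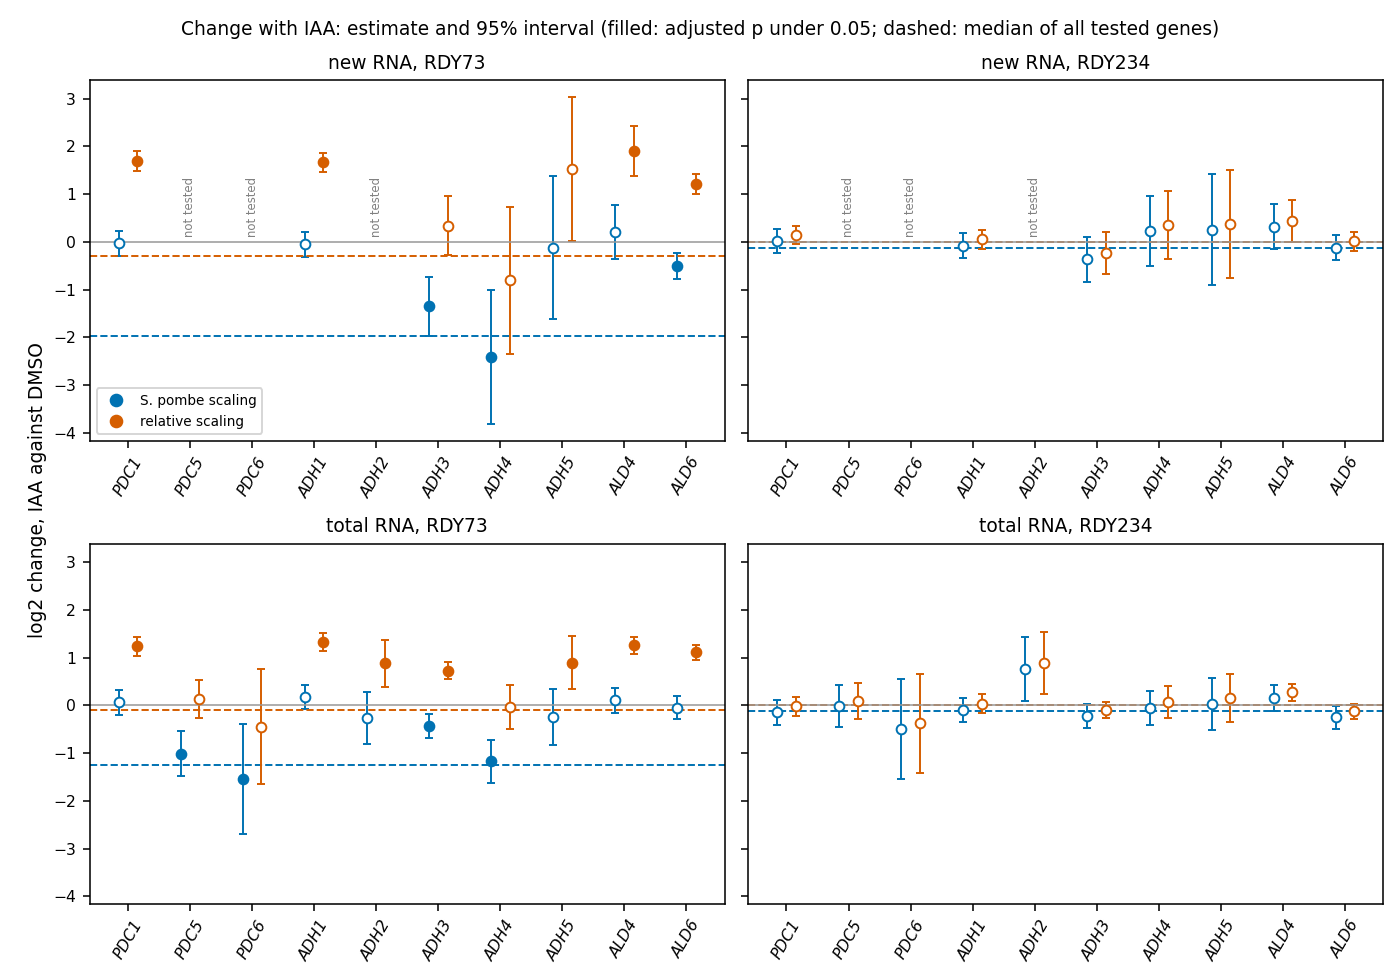
log2 change with IAA against DMSO for new RNA (top) and total RNA (bottom) in each strain, with S. pombe scaling and with relative scaling. Points are edgeR estimates with 95% intervals, filled where the adjusted p is under 0.05, and dashed lines are medians of all tested genes, at -1.97 and -0.29 for new RNA in RDY73. In RDY73 PDC1 and ADH1 sit near 0 with S. pombe scaling and above 1 with relative scaling.

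In RDY234 none of the 10 members was called in total RNA with IAA, where 0.0328% of genes were (2 of 6100 by edgeR, 482 at an unadjusted p under 0.05). ADH2 (log2 change 0.76, 95% interval 0.09 to 1.43) and ALD6 (-0.25, -0.50 to -0.01) had an unadjusted p under 0.05. The strains differed in the IAA effect on total RNA, where 69.9% of genes were called (69.4% lower in RDY73), for ADH4 (-1.11 ± 0.29 on the log2 scale, adjusted p = 0.000647), PDC5 (-0.99 ± 0.32, adjusted p = 0.00560) and ADH2 (-1.03 ± 0.43, adjusted p = 0.0305). PDC5 had 71.6, 107 and 77.8 scaled reads with DMSO in RDY234 and 79.6, 64.9 and 112 with IAA. The call of ADH2 was lost when any of 5 single libraries was left out. In RDY234 its scaled reads were 20.5, 27.5 and 7.78 with DMSO and 31.7, 27.7 and 38.4 with IAA. Without DMSO replicate C of RDY234 the difference was -0.68 (adjusted p = 0.155) and without IAA replicate C of RDY234 it was -0.90 (0.0751). Without DMSO replicate B of RDY73 it was -0.88 (0.0818), without DMSO replicate C -0.99 (0.0540) and without IAA replicate A -0.95 (0.0579). Under relative scaling, where 44.0% of genes were called (23.1% higher), none of these 3 was called, and PDC1 (1.26), ADH1 (1.29), ADH3 (0.81), ALD4 (0.99) and ALD6 (1.24) were called higher in RDY73 in that interaction.

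The strains were compared without IAA to see what the extra BDF1 copy goes with. The multimapped share of S. pombe reads differed between them as given above, and its part in these differences was not tested. In total RNA without 4tU, 6 members were lower in RDY73, 1 was higher and 3 were not called, where 79.7% of all genes were called (77.5% lower and 2.21% higher). The exception was ADH2, with 46.7, 69.1 and 69.6 scaled reads in RDY73 and 31.0, 21.8 and 20.2 in RDY234. Every RDY73 library lay above every RDY234 library, and ADH2 was 2.52-fold higher in RDY73 (log2 difference 1.33 ± 0.29, adjusted p = 0.000101). It was higher under relative scaling as well (1.99, adjusted p = 1.36e-06), and it stood at percentile 99.7 of the 6100 log2 differences.

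ADH4 had 81.4, 90.1 and 63.7 scaled reads in RDY73 and 182, 143 and 181 in RDY234 without 4tU, and was lower in RDY73 (log2 difference -1.11 ± 0.18, adjusted p = 1.7e-06). ADH5 (-1.03 ± 0.27), ADH3 (-0.95 ± 0.12), ALD6 (-0.63 ± 0.12), PDC1 (-0.51 ± 0.13) and ADH1 (-0.40 ± 0.12) were lower too, against a median of -0.68 over all genes. PDC5 (-0.37, 95% interval -0.81 to 0.07), PDC6 (0.28, -0.78 to 1.34) and ALD4 (0.16, -0.10 to 0.42) were not called. PDC5 was called lower without replicate C of the RDY234 group (-0.52, adjusted p = 0.0383), and ALD4 was called higher with TMM factors from the S. pombe genes (0.30, adjusted p = 0.0216). Under relative scaling, with a median of -0.02 and 23.5% of genes called (14.3% higher and 9.21% lower), ADH2, ALD4 (0.82) and ADH1 (0.26) were higher in RDY73 and ADH4 (-0.46) and ADH3 (-0.29) lower. Only ADH2, ADH3 and ADH4 were thus called in the same direction on both scales. The call of ADH4 was lost with DESeq2 on median-of-ratios size factors from S. cerevisiae (-0.45, DESeq2 adjusted p = 0.0606). In new RNA with DMSO, 6 of the 7 tested members were lower in RDY73 with S. pombe scaling (79.8% of all genes called, 79.5% lower), by log2 differences of -1.62 for ADH4 to -0.56 for ADH1. ADH4 passed the filter on labelled reads mainly through RDY234, where it was higher, so its call is not independent of that direction. The call of ADH1 was lost with at least 1 conversion (-0.19, adjusted p = 0.190). ADH5 was not called (-0.95, 95% interval -2.33 to 0.43). With relative scaling (8.59% of genes called, 5.64% higher) PDC1 (0.33) and ADH1 (0.56) were instead higher and the other 5 were not called.

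DMSO with 4tU was also compared with no 4tU. The sample titles do not say whether the cultures without 4tU were given DMSO, so effects of DMSO and of 4tU may not be told apart here. Between DMSO with 4tU and no 4tU, none of the 10 members was called by edgeR in total RNA of RDY73, where 0.656% of genes were, or of RDY234, where 0.574% were. No member had an unadjusted p under 0.05 in either strain, and 367 and 436 of all 6100 genes did. For PDC1 the 95% interval of the log2 change was -0.16 to 0.37 in RDY73 and -0.24 to 0.29 in RDY234, and for ADH1 -0.18 to 0.31 and -0.34 to 0.15. None of the 6100 genes (0%) was called by edgeR or by DESeq2 on S. pombe size factors in the interaction of strain and 4tU, and DESeq2 with median-of-ratios size factors called 3 (79 genes and no member at an unadjusted edgeR p under 0.05).

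The neighbours of this route were read from lists chosen with earlier results of these data known. With IAA in RDY73, where 83.9% of all tested genes were lower in new RNA with a median log2 change of -1.97, each list but acetyl-CoA synthesis held a smaller share of genes that fell. New RNA of the other alcohol, aldehyde and butanediol dehydrogenases fell in 4 of 8 tested genes of 10, with a median log2 change of -0.88. HFD1, a fatty aldehyde dehydrogenase, fell most (-2.24 ± 0.36, adjusted p = 2.7e-09). Of acetyl-CoA synthesis 3 of 3 tested genes of 6 fell, most of all ACS1, the acetyl-CoA synthetase used on non-fermentable carbon (-3.49 ± 0.68, adjusted p = 1.1e-06). Mitochondrial pyruvate use, the route that competes with Pdc1 for pyruvate, fell in 7 of 10 genes. MPC1, a subunit of the mitochondrial pyruvate carrier, led it in new RNA (-3.41 ± 0.43, adjusted p = 2.3e-14) and in total RNA (-2.29 ± 0.16, adjusted p = 1.1e-15), and it was lower under relative scaling too (-1.75 and -1.15). Of 14 regulators of these genes 12 were tested in new RNA and 7 fell, PDC2, an activator of PDC1 and PDC5, furthest (-2.08 ± 0.50, adjusted p = 5.8e-05).

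The glycerol branch, the other sink of NADH, held 1 riser: GPD1, glycerol-3-phosphate dehydrogenase, was called higher in new RNA (0.49 ± 0.20, adjusted p = 0.0189) and in total RNA (0.37 ± 0.13, adjusted p = 0.0104) of RDY73. In RDY234 it stood at 0.46 ± 0.18 in new RNA (adjusted p = 0.880) and 0.32 ± 0.13 in total RNA (adjusted p = 0.594), and the strain difference was 0.03 (95% interval -0.50 to 0.55) and 0.05 (-0.32 to 0.42). Its promoter also drives OsTIR1 in both strains. In that list 3 of 7 genes fell in new RNA, against 83.9% of all tested genes, and GUT1, glycerol kinase, fell furthest (-2.44 ± 0.82, adjusted p = 0.00414).

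In total RNA with IAA in RDY73, where 77.9% of all genes were lower, 5 of 10 other dehydrogenases, 4 of 6 genes of acetyl-CoA synthesis, 7 of 10 of mitochondrial pyruvate use, 2 of 7 of the glycerol branch and 8 of 14 regulators fell. The furthest were ADH7, an NADPH-dependent alcohol dehydrogenase (-1.50), ACS1 (-1.24), MPC1, FPS1, the glycerol channel (-1.09), and RAP1, which encodes a DNA-binding activator of glycolytic genes (-1.59 ± 0.14, adjusted p = 2.2e-13). GCR1, which encodes an activator of glycolytic genes, was the one regulator that rose (0.60 ± 0.13, adjusted p = 8.2e-05). Under relative scaling, where 16.3% of all genes were called higher, the calls in new RNA of RDY73 differed. Called higher were 3 of 8 tested other dehydrogenases, 4 of 10 genes of mitochondrial pyruvate use, 4 of 7 of the glycerol branch and 5 of 12 regulators. ACS1 and MPC1 were the ones called lower, where 597 of 5195 genes were. FPS1 turned to 0.06 in total RNA. No gene of these 5 lists was called with IAA in RDY234 in new or total RNA on the S. pombe scale, where 2 of 5195 and 2 of 6100 genes were.

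In the strain difference of the IAA effect 20 of 40 tested list genes were called lower in RDY73 in new RNA (74.2% of all genes) and 17 of 47 in total RNA (69.4%). The largest differences in new RNA were those of HFD1 (-1.86), ACS1 (-3.60), MPC1 (-3.48), GUT1 (-2.87) and PDC2 (-1.77). In total RNA they were those of HFD1 (-0.89), ACS1 (-1.31), MPC1 (-2.08), FPS1 (-0.96) and RAP1 (-1.45), and GCR1 (0.55) and GPP1, a glycerol-3-phosphate phosphatase (0.39), were higher. Under relative scaling HFD1 (0.15) and FPS1 (0.06) turned in total RNA.

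Without IAA or 4tU, where 77.5% of all genes were lower in RDY73, 8 of 10 other dehydrogenases, 1 of 6 genes of acetyl-CoA synthesis, 8 of 10 of mitochondrial pyruvate use, 5 of 7 of the glycerol branch and 11 of 14 regulators were lower. The exceptions called higher, as ADH2 was, were BDH2, a butanediol dehydrogenase homologue (0.72 ± 0.19, adjusted p = 0.00105), and ADR1, the activator of ADH2 on non-fermentable carbon (0.55 ± 0.23, adjusted p = 0.0261). The lowest were ADH7 (-1.97), MIG3, a homologue of the glucose repressor Mig1 (-2.03 ± 0.21, adjusted p = 1.9e-10), PDA1, a subunit of pyruvate dehydrogenase (-0.90), FPS1 (-0.93) and ACS2, the acetyl-CoA synthetase used in glucose (-0.64). All of these kept their directions under relative scaling except ACS2 (0.02). In new RNA with DMSO 31 of 40 tested list genes were lower in RDY73 (79.5% of all genes), furthest HFD1 (-1.67), MIG3 (-2.21), LPD1, a subunit of pyruvate dehydrogenase (-1.83), FPS1 (-1.26) and ACS2 (-0.89, and 0.24 under relative scaling). With 4tU against none, 1 list gene was called on the S. pombe scale, ADH6, an NADPH-dependent alcohol dehydrogenase, higher in RDY234 (0.52 ± 0.13, adjusted p = 0.0441).

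The genes whose relative total level was most like that of PDC1 over the 18 libraries were ACT1, ENO2 and TEF4, with Pearson correlations of 0.994, 0.990 and 0.989 among 4186 genes with at least 100 reads on average. For ADH1 they were the glycolytic genes GPM1 (0.996), TDH2 (0.994) and TDH3 (0.994). PDC1 and ADH1 correlated with each other at 0.973, with ALD6 at 0.982 and 0.977, and with ADH4 at -0.55 and -0.58. These libraries share strains and treatments, and the correlations are descriptions of log2 relative levels with no test.

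Promoters with and without a TATA match were set side by side, as all 10 members hold one. Over all tested genes, the median log2 change of new RNA with IAA in RDY73 was -1.80 for 1771 genes with a match and -2.09 for 3254 without, and 77.8% and 89.5% were called lower. In total RNA the medians were -1.06 for 2150 genes and -1.38 for 3556. Within the members, which share the match, new RNA ran from -2.42 (ADH4) to 0.20 (ALD4).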

How the data were processed

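The authors deposited read counts per gene window, 72 tables in all: 4 for each of 18 libraries, for S. cerevisiae and S. pombe at thresholds of 1 and 2 T-to-C conversions. Per the file headers the counts come from SLAM-DUNK 0.4.3, and per the submitters' processing notes reads were trimmed with fastp 0.23.2. Neither the mapping settings nor any use of molecular identifiers is stated, so some reads may be PCR copies. The upper limit given for PDC6 covers counting error only, while the edgeR intervals rest on the spread between libraries.

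Counts were tested with edgeR 4.0.16 (R 4.3.3) by a quasi-likelihood F test, with 1 mean per group, library sizes set to the S. pombe total (all or labelled), and Benjamini-Hochberg adjustment over all tested genes at 0.05. A gene was tested with 10 or more reads in 3 or more libraries: 5195 genes for labelled reads (12 libraries) and 6100 for all reads (18 libraries). The scripts were tested on simulated counts with 200 changed genes, a setting unlike RDY73 with IAA, where most genes fell. Shares and within-library ratios (with 0.5 added to each count) were put to a two-sided exact permutation test.

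The members were named by a rule, and the members and lists were chosen with earlier results of these data known. Every member is named, and in each list and comparison the genes with the largest rise and the largest fall past the threshold. The 3 genes most like PDC1 and ADH1 are those with the highest correlation. Alternatives were relative scaling (TMM), DESeq2 1.42.0, another conversion threshold, background subtraction, other filters, only the groups compared, a replicate block, and leaving out each library. Sequences are from the RefSeq R64 genome, whose genes matched the deposited windows in 6396 of 6398 nuclear cases.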

Additional observations from a re-analysis of the deposited data

Results flagged for a closer look

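Each result here differed between the strains by the interaction term of edgeR's fit on the S. pombe scale, as the log2 effect of IAA in RDY73 minus that in RDY234, with 3 libraries per group. In new RNA the difference was -2.64 for ADH4 (effects -2.42 and 0.23) and -0.99 for ADH3 (effects -1.35 and -0.36). ADH4 passed the filter on labelled reads mainly through RDY234. In total RNA it was -1.11 for ADH4 (effects -1.17 and -0.05), -0.99 for PDC5 (effects -1.01 and -0.02) and -1.03 for ADH2 (effects -0.27 and 0.76). Among all genes 74.4% were called in that interaction for new RNA and 69.9% for total RNA, so calls of this kind were the rule. The differences of ADH3 in new RNA and of ADH2 in total RNA lost their calls when single libraries were left out, as given in the report.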

How the results depend on the processing

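Scaling to S. cerevisiae itself, by TMM in edgeR or by median-of-ratios size factors in DESeq2, moved most values, because it sets the typical gene near no change, while the S. pombe scale does not. The number of members called went from 2 to 4 under both for the strain difference in the IAA effect on new RNA, from 6 to 2 and 3 for new RNA of RDY73 against RDY234, from 4 to 7 under both for total RNA with IAA in RDY73, and from 3 to 5 under both for the strain difference in the IAA effect on total RNA. For total RNA of RDY73 against RDY234 without 4tU it went from 7 to 4 in DESeq2. Over all genes, 60.4% were called under TMM for total RNA with IAA in RDY73, in place of 79.1%, and counts for the strain comparisons follow below. The following log2 differences changed sign and were called on the S. pombe scale or under the setting, relative TMM first and DESeq2 second. For new RNA with IAA in RDY73 these were PDC1 1.69 and 1.70, ADH1 1.67 and 1.68, ADH3 0.34 and 0.34, ALD6 1.21 and 1.22. For the strain difference in the IAA effect on new RNA these were PDC1 1.55 and 1.54, ADH3 0.57 and 0.56, ALD4 1.46 and 1.45, ALD6 1.20 and 1.20. For new RNA of RDY73 against RDY234 these were PDC1 0.33 and 0.34, ADH1 0.56 and 0.56, ALD4 0.21 and 0.21, ALD6 0.29 and 0.30. For total RNA with IAA in RDY73 these were PDC5 0.13 and 0.22, ADH2 0.88 and 0.97, ADH3 0.72 and 0.81, ADH4 0.058 (DESeq2 only), ADH5 0.89 and 0.98, ALD6 1.11 and 1.20. For the strain difference in the IAA effect on total RNA these were PDC5 0.035 and 0.12, ADH2 0.069 (DESeq2 only), ADH3 0.81 and 0.90, ALD4 0.99 and 1.07. For total RNA of RDY73 against RDY234 without 4tU these were PDC1 0.15 and 0.16, ADH1 0.26 and 0.27, ALD6 0.041 and 0.049. Among values called on neither scale, ADH5 also changed sign for new RNA with IAA in RDY73 (1.53 and 1.54), for the strain difference in the IAA effect on new RNA (1.16 and 1.15) and total RNA (0.74 and 0.82), and for new RNA of RDY73 against RDY234 (0.18, TMM only). So did PDC5 for total RNA of RDY73 against RDY234 without 4tU (0.30 and 0.31), the IAA effect within RDY234 on ADH1 (new and total RNA), ALD6 (new RNA), ADH4 and PDC5 (total RNA), and the 4tU effect on ADH3 in RDY234.

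With at least 1 conversion per read, 1 of 9 tested members was called for the strain difference in the IAA effect on new RNA. The count over all genes at that threshold is not given here, so the count of members is not read further. With at least 2 conversions, leaving out single libraries gave 1 to 3 members, where 3544 to 3774 of all tested genes were called. Labelled shares did not overlap between DMSO and IAA for 5 pairs of member and strain, against 3 with at least 1 conversion and 5 to 8 without single libraries. The same count over all genes was not made. Over all genes, calls of new RNA with IAA in RDY73 went from 4379 to 1442 (relative), 1309 (DESeq2, median-of-ratios) and 2739 (a fit of only the groups compared, in which 3224 genes passed the filter in place of 5195). For the strain difference in the IAA effect they went from 3866 to 950 and 849 in new RNA and from 4264 to 2681 and 2457 in total RNA. For RDY73 against RDY234 they went from 4147 to 446 and 439 in new RNA and from 4863 to 1436 and 1433 in total RNA. Same-letter correlations of deviations ran from 0.006 to 0.113 in RDY73 (median 0.058), where other-letter ones ran from -0.117 to 0.044 (median -0.014). In RDY234 same-letter ones ran from -0.239 to 0.224 and other-letter ones from -0.243 to 0.255. Whether the letters pair the cultures was not tested, and the main fits did not use them. With the letter as a replicate block, calls with IAA in RDY234 went from 2 to 1 in new RNA and from 2 to 4 in total RNA, and ALD6 passed the threshold for the strain difference in new RNA (log2 difference -0.39, edgeR adjusted p = 0.0432). Depth limits PDC6, ADH2, PDC5, ADH4 and ADH5, whose labelled reads numbered 53 or fewer per library.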
